A study of Mus musculus with 8 samples.

Results

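App, Prnp and Itm2b encode 3 membrane proteins whose fragments or misfolded forms build amyloid deposits in the brain. Their sites come from the authors' table of methylated sites that differed between young and aged mouse cortex cells. Every row carrying one of these gene names was taken. That gave 17 of the 2055 listed sites: 12 in App, 4 in Prnp and 1 in Itm2b. The aged cells came from cortex of mice with the genotype APOBEC1-YTH. These mice had received 5 days of tamoxifen (20 mg/kg, 1 dose per 24 h) and were sampled 7 days later. The aged mice were 12 to 14 months old when treatment began, and their 8 libraries were 4 lanes of each of 2 sublibraries, so they were not biological replicates. The young cells are samples of another series, and the sources used here do not give their age or treatment, the number of mice or the promoter behind the fusion. Whether the young libraries were prepared with the kit of the aged ones is not stated either, so a difference in library method cannot be told apart from age in any value below. The sample protocols describe whole cells from dissociated cortex and polyA RNA, while the design text speaks of total RNA from nuclei sorted for NeuN. Expression values and cell type markers were not analysed here.

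N6-methyladenosine (m6A) is a methyl mark that the METTL3-METTL14 complex places on messenger RNA, mostly near stop codons and in 3' UTRs, and that YTH proteins read. APOBEC1-YTH joins the reading domain to a cytidine deaminase, which deaminates a C beside the mark, and the resulting C-to-U change shows in single-cell reads where an RNA was methylated. App, the amyloid precursor protein, is cut by beta- and gamma-secretase to release amyloid beta, the peptide of Alzheimer plaques. Prnp encodes the prion protein, a lipid-anchored surface protein of neurons that misfolds in prion disease and can bind amyloid beta oligomers. Itm2b, also called BRI2, is the precursor of the amyloid peptides of familial British and Danish dementia, and its normal product binds App and restrains its cleavage.

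The sequences below surround the sites on which the comparison turns. They were read 5' to 3' on the strand of the gene from GENCODE M21 transcripts (GRCm38, the build that the submitters call mm10). Each is 21 bases long, and the capitals mark the edited C with the base before it. The first 4 stand for the App 3' UTR cluster, the next 2 are the App coding sites, and the rest are all sites of Prnp and Itm2b.
App, 39 bases after the stop codon, chr16:84955282-84955302 (-): tgaacttggACagcgaaacca
App, 99 bases after the stop codon, chr16:84955222-84955242 (-): tggaaagaaACaaacccttcc
App, 153 bases after the stop codon, chr16:84955168-84955188 (-): tgctgtaacACaagtagatgc
App, 183 bases after the stop codon, chr16:84955138-84955158 (-): aattaatatACaaatcagtaa
App, coding, exon 7, chr16:85030343-85030363 (-): cccacgacaGCagccagcacc
App, coding, exon 13, chr16:84971438-84971458 (-): agcctgttgACgcccgccccg
Prnp, coding, exon 3, chr2:131936842-131936862 (+): tccattttgGCaacgactggg
Prnp, 414 bases after the stop codon, chr2:131937598-131937618 (+): ccctggaaaACagcctcccac
Prnp, 470 bases after the stop codon, chr2:131937654-131937674 (+): tctttactaACaaacgatagc
Prnp, 494 bases after the stop codon, chr2:131937678-131937698 (+): ttgaaggcaACaggaaaaaaa
Itm2b, coding, exon 5, chr14:73364614-73364634 (-): gcatcgagaACgtggacaacc

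All 17 edited bases were C on the strand of the gene, and 15 followed an A, the base that carries the mark. Over the whole table the C followed an A at 76.8% of the 1982 sites whose base read as C in this way. The 2 exceptions, App exon 7 and Prnp exon 3, both had GC at the edited base, so no A stood directly before the C. Cells are called methylated below as in the authors' column headers. Whether the editing marks m6A was not tested at these 2 sites or at any other. The A stood in the motif DRAC (R being A or G, and D any base but C) at 12 of the 17 sites, against 64.9% of the 1982 sites. The App sites 153 and 183 bases after the stop codon, with the highest young shares of the gene, lay outside DRAC. None of the 41-base stretches around the 17 sites occurred in a transcript of another annotated gene.

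The table gives 1 pooled value per age for each site, so the values have no replicate error and no test was added. Its columns hold no reads per site, so the read depth is unknown. At every site the percentages go back to 2623 young cells and, where an aged cell was methylated, to 846 aged cells, so a cell with no read there counts as unmethylated. A lower share of methylated cells therefore cannot be told apart from fewer cells with the transcript or fewer reads of it. The C-to-U within methylated cells is an average over the called cells only, and how read depth bears on it was not tested. Intervals are exact binomial (Clopper-Pearson) 95% intervals of a share over cells and cover counting error only. The mean C-to-U over all cells is the share of methylated cells times the C-to-U within them, so the 3 measures are not independent. Every listed site had an adjusted p under 0.05 in the authors' deposited table, 25 or more methylated cells over both ages, and means that differed by at least 0.58 on the log2 scale in either direction. Sites with smaller differences lie outside the comparison.

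The first comparison asked how the listed sites along App differed between the ages. App carried 10 sites in its 3' UTR and 2 in coding sequence, and all 12 had a lower mean C-to-U in aged cells. Among all listed sites 58.5% were lower by mean, among 3' UTR sites 75.9% and among coding sites 42.2%. The 10 sites of the 3' UTR and the 2 coding sites reached that lower mean in different ways. In the 3' UTR fewer aged cells were methylated, and the average C-to-U within them was higher. In coding sequence the C-to-U within methylated cells was far lower in aged cells, at 0.445% in exon 7 and 0.583% in exon 13. Background C-to-U was not measured here, and whether values this low mark editing was not tested. The share of methylated aged cells was higher at the 2 coding sites, but its intervals overlapped those of young cells. By share alone 50.9% of listed 3' UTR sites were lower in aged cells. Of the 687 listed 3' UTR sites with a methylated aged cell, 21.3% had a lower share together with a higher within-cell C-to-U. Of the 797 such coding sites, 61.1% had a higher share together with a lower within-cell C-to-U.

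The App 3' UTR sites formed a single cluster, from 33 to 183 bases after the stop codon, in the last of the 16 exons of transcript App-201. The cluster spanned 151 bases, 17.0% of the 888-base 3' UTR, and neighbouring sites lay 2 to 40 bases apart. All 6 protein-coding App transcripts of the annotation hold the 10 sites in their 3' UTR. The span held 36 C, of which 15 followed an A, and the 10 listed sites were all among those 15. It held 8 copies of DRACH (H being A, C or T), and 7 of them were listed. A further 30 C after an A lay between the cluster and the end of the 3' UTR, and none of them was listed. Sites this close can lie on the same reads and in the same cells, so the 10 values are not independent.

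Within the cluster the site 183 bases after the stop codon (chromosome 16, position 84955148) had the highest share in young cells, with 999 methylated cells or 38.1% (36.2 to 39.98). In aged cells 28 were methylated, or 3.31% (2.21 to 4.75). Its young share was the highest of all 698 listed 3' UTR sites, while its aged share ranked 119 among them. Its share was thus 11.5 times lower and its within-cell C-to-U 1.73 times higher, at 32.4% in young and 55.9% in aged cells, which together made the mean 6.66 times lower.

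The site 153 bases after the stop codon came next, with 841 young cells or 32.1% (30.3 to 33.9) and 26 aged cells or 3.07% (2.02 to 4.47). Its mean C-to-U went from 9.43% to 2.20%, and the C-to-U within methylated cells from 29.4% to 71.5%. Only 2 bases upstream, the site 151 bases after the stop codon was methylated in 488 young cells, or 18.6% (17.1 to 20.1), and in 8 aged cells, or 0.946% (0.409 to 1.85). The young intervals of these neighbours did not overlap. Both shares were counted over the same cells, so the intervals do not measure the difference between the 2 sites. The upstream one had the largest relative difference of the cluster, with a share 19.7 times lower (9.91 to 45.8) and a mean 11.2 times lower in aged cells.

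At 137 bases after the stop codon 734 young cells, or 28.0% (26.3 to 29.7), and 25 aged cells, or 2.96% (1.92 to 4.33), were methylated. At 99 bases the counts were 637 young cells, or 24.3% (22.7 to 26.0), and 18 aged cells, or 2.13% (1.27 to 3.34). These 2 sites followed next in the order of shares at both ages, and the 3 sites with the highest young share were also the 3 with the highest aged share. At 87 bases the share was 13.0% (11.8 to 14.4) in young and 1.54% (0.821 to 2.61) in aged cells, and at 169 bases 9.53% (8.43 to 10.7) and 0.827% (0.333 to 1.70).

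The 3 sites nearest to the stop codon had the lowest young shares. The site at 39 bases, in the DRACH sequence GGACA, had shares of 8.69% (7.64 to 9.84) in young and 1.18% (0.568 to 2.16) in aged cells, the smallest relative difference of the cluster at 7.35 times (3.93 to 15.5). At 47 bases the shares were 6.21% (5.32 to 7.21) and 0.473% (0.129 to 1.21). At 33 bases they were 5.91% (5.04 to 6.88) and 0.355% (0.0732 to 1.03), the latter from 3 aged cells, a ratio of 16.7 (5.60 to 81.7). At all 10 sites the share was lower in aged cells and the intervals of the 2 ages did not overlap, as at 27.2% of all listed 3' UTR sites and at 92.6% of the 163 listed 3' UTR sites of other genes with a young share of at least 5%.

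**Figure D1:**
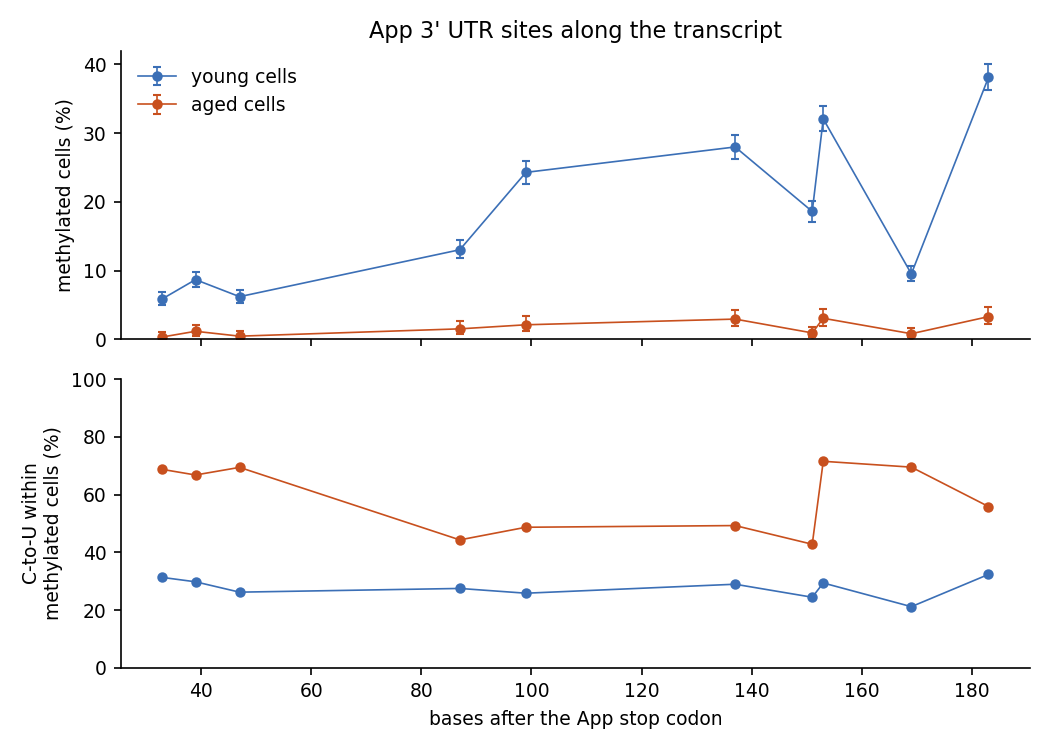
App 3' UTR sites by distance from the stop codon in bases, with the share of methylated cells in percent (top, bars are 95% binomial intervals) and the C-to-U within methylated cells in percent (bottom, no error available), in blue for young and orange for aged cells. The young share peaked at 38.1% and the aged share stayed at or under 3.31%, while the aged within-cell values lay above the young ones at all 10 sites.

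The C-to-U within methylated cells ran from 21.2% to 32.4% over the cluster in young cells and from 42.8% to 71.5% in aged cells, so the ranges of the 2 ages did not overlap. It was 1.61 to 3.28 times higher in aged cells, with a median of 2.04. These aged values rest on 3 to 28 cells per site, against 155 to 999 young cells, and their spread over cells is not given. Over the cluster the share was lower by a median of 11.5 times (7.35 to 19.7) and the mean by a median of 5.41 times (3.28 to 11.2).

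The App cluster was set beside listed 3' UTR sites of other genes that also had a young share of at least 5%, a limit chosen after the values were seen. Of 163 such sites in 57 genes, 155 had a lower share and 154 a lower mean in aged cells. Among the 159 with a methylated aged cell, 110 had a lower share with a higher within-cell C-to-U, as all 10 App sites had. The median log2 ratio of the share, aged over young, was -2.50 at these sites and -3.52 in the App cluster, and the median log2 ratio of within-cell C-to-U was 0.64 and 1.02. Picking sites by a high young share favours a lower aged share, so these counts describe the table and show nothing particular to App.

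Clusters as dense were few. Of the 367 genes with a listed 3' UTR site, 4 had 10 or more such sites within 151 bases: the vesicle fusion gene Snap25 with 15, the calcineurin gene Ppp3ca with 11, and App and the AMPA receptor gene Gria2 with 10 each. By mean every 3' UTR site of these 4 genes was lower in aged cells, 17 of 17 in Snap25, 15 of 15 in Ppp3ca and 18 of 18 in Gria2. By share 16 of 17, 15 of 15 and 17 of 18 were lower in those genes. The limit of 10 is the count of App itself, and below it the directions were mixed. Snhg11, with 8 sites in such a window, had 29 of 46 3' UTR sites lower by mean and 10 by share. Camk2n1, with 7, had 12 of 13 lower by mean and 13 by share.

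The App coding sites lay in exons 7 and 13 of the same transcript. The exon 7 site (position 85030353) fell on the second base of codon 293, in an exon of all 6 protein-coding transcripts. It was methylated in 19 young cells, or 0.724% (0.437 to 1.13), and in 13 aged cells, or 1.54% (0.821 to 2.61). Within those cells C-to-U went from 3.34% to 0.445%, and the mean from 0.0242% to 0.00683%. Its values were the lowest of the App sites by mean at both ages.

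The exon 13 site (position 84971448) fell on the third base of codon 566, where a C-to-U change leaves the amino acid as it is, and its exon is in 3 of the 6 protein-coding transcripts. It was methylated in 18 young cells, or 0.686% (0.407 to 1.08), and in 13 aged cells. C-to-U in the methylated cells went from 14.0% to 0.583%, a 24.0-fold difference, and the mean was 10.7 times lower in aged cells. At both coding sites the intervals of the shares overlapped. Of 513 coding sites of other genes with a young share under 1% and a methylated aged cell, 354 had the same combination of a higher share and a lower within-cell C-to-U. This comparison was also chosen after the values were seen. Every listed site had 25 or more methylated cells over both ages, so picking a low young share favours a higher aged share. With or without a methylated aged cell, 509 of 514 such sites had a higher share. With 18 young cells the exon 13 site could be listed only with a higher aged share. These counts thus show nothing particular to App.

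Adjusted p-values of the App sites in the authors' deposited table ran from 6.37e-09 at 183 bases to 0.0344 at 39 bases after the stop codon. The order did not follow the number of methylated cells. The exon 7 and exon 13 sites, with 32 and 31 methylated cells over both ages, stood at 0.000162 and 0.000168 in the authors' deposited table. The site 169 bases after the stop codon, with 250 young and 7 aged cells, had 0.0291 in the authors' deposited table. The sources used here do not name the test behind these values.

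**Figure D2:**
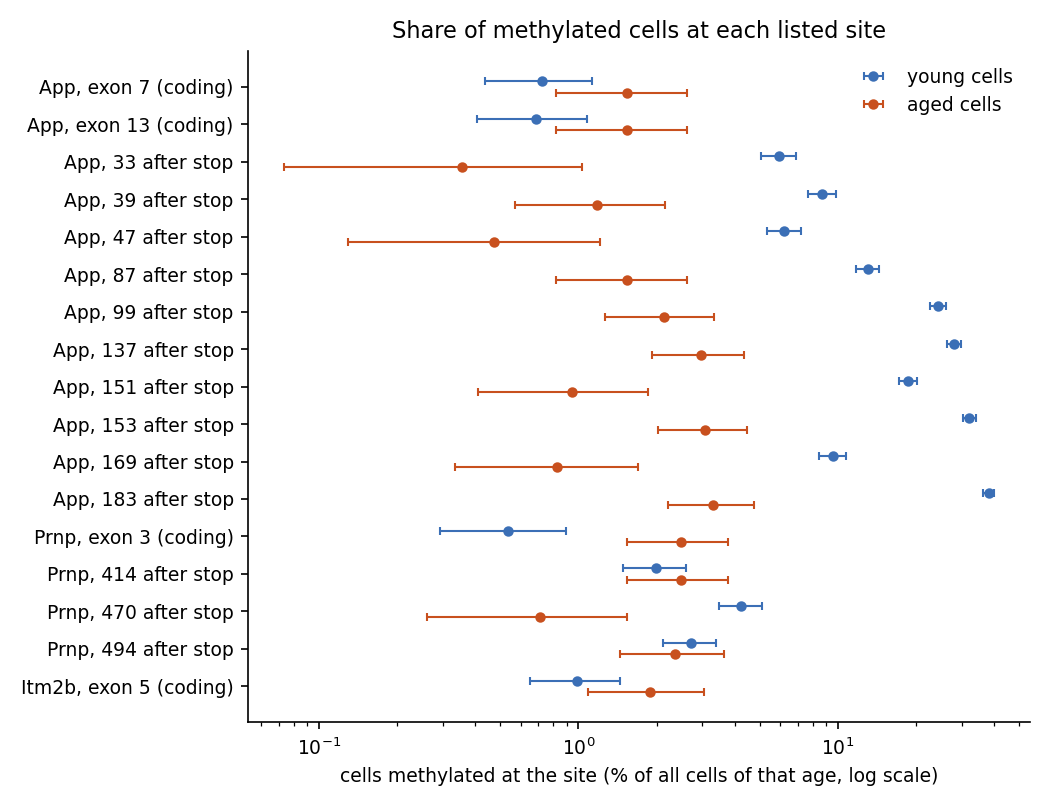
Share of methylated cells at the 17 listed sites of App, Prnp and Itm2b, in percent of all young (blue) or aged (orange) cells on a log axis, with 95% binomial intervals. Sites are ordered along each transcript and named by exon or by bases after the stop codon. The 10 App 3' UTR sites and the Prnp site at 470 bases have young values well to the right of the aged ones, while at the 4 coding sites the aged values lie to the right.

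The next comparison asked the same of Prnp, whose sites did not move together. All 4 lay in exon 3 of 3, with 1 in the coding part and 3 in the 3' UTR, 414 to 494 bases after the stop codon. By mean C-to-U, 3 of the 4 sites were lower in aged cells and the site at 414 bases was higher. By share 2 were lower, and by within-cell C-to-U 2 were lower, but not the same pair. Among all listed sites 58.5% were lower by mean and 24.6% by share, and among 3' UTR sites 75.9% and 50.9%. By within-cell C-to-U 68.1% of all listed sites with a methylated aged cell were lower. With 4 sites, these counts show nothing particular to Prnp.

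The Prnp coding site (chromosome 2, position 131936852), on the third base of codon 141, was methylated in 14 young cells, or 0.534% (0.292 to 0.894), and in 21 aged cells, or 2.48% (1.54 to 3.77). The share was thus 4.65 times higher in aged cells, and the intervals did not overlap. Every listed site had 25 or more methylated cells over both ages. With 14 young cells this site could therefore be listed only with a higher aged share, so that direction shows nothing about age. Only 5.35% of listed coding sites had a lower share in aged cells, so a higher one is not particular to Prnp. How many listed coding sites had intervals apart was not counted. In those cells C-to-U went from 14.0% to 1.09%, and the mean from 0.0745% to 0.0270%. Whether an aged within-cell value this low marks editing was not tested. The edited C followed a G here, as at the App exon 7 site, which also had a higher share and a lower within-cell value in aged cells.

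At 470 bases after the stop codon (position 131937664) 111 young cells, or 4.23% (3.49 to 5.07), and 6 aged cells, or 0.709% (0.261 to 1.54), were methylated. By mean and by share this was the Prnp site with the largest difference, while by within-cell C-to-U it was the coding site. Its share was 5.97 times lower (2.66 to 16.6), its within-cell C-to-U went from 16.3% to 22.8%, and its mean went from 0.689% to 0.162%. A lower share with a higher within-cell value was also the pattern of the App cluster.

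The Prnp sites on either side differed from it. At 414 bases (position 131937608) 52 young cells, or 1.98% (1.48 to 2.59), and 21 aged cells, or 2.48% (1.54 to 3.77), were methylated, with overlapping intervals. The within-cell C-to-U there went from 6.30% to 13.8%, so the mean was 2.75 times higher, at 0.344% against 0.125%. At 494 bases (position 131937688) the shares were 2.71% (2.12 to 3.40) in young and 2.36% (1.45 to 3.63) in aged cells, again overlapping. The within-cell C-to-U went from 6.07% to 3.99% and the mean from 0.164% to 0.0943%, a log2 ratio of -0.80.

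That last difference was smaller than the median of the table, a log2 ratio of mean C-to-U of -0.87, so relative to the median site the Prnp site at 494 bases was higher in aged cells. The median log2 ratio of the share was 1.14 over all sites, and on that scale the App exon 7 site, at 1.09, and the Itm2b site, at 0.93, had a lower share in aged cells. No other direction of mean or share stated here for the 3 genes depended on this centring except that of the Prnp share at 414 bases, where the log2 ratio was 0.32. For the 3 Prnp 3' UTR sites, in transcript order, the authors' deposited table gives adjusted p-values of 0.000499, 0.0454 and 0.0477, and for the coding site 1.44e-09.

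Itm2b had a single listed site, in coding sequence, and its mean C-to-U was higher in aged cells. It lay in exon 5 of 6 of transcript Itm2b-201 on chromosome 14 at position 73364624, on the third base of codon 211, in 1 of 3 protein-coding transcripts. The edited C stood in GAACG. It was methylated in 26 young cells, or 0.991% (0.648 to 1.45), and in 16 aged cells, or 1.89% (1.08 to 3.05), and the intervals overlapped. C-to-U in the methylated cells was high at both ages, at 54.0% (young) and 70.2% (aged). The mean went from 0.535% to 1.33%, 2.48 times higher. The authors' deposited table gives it an adjusted p-value of 0.00105. Of the 4 coding sites of the 3 genes this was the one with a higher within-cell C-to-U in aged cells, while all 4 had a higher share. Among listed coding sites 5.35% had a lower share in aged cells, so a higher share was the rule there.

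**Figure D3:**
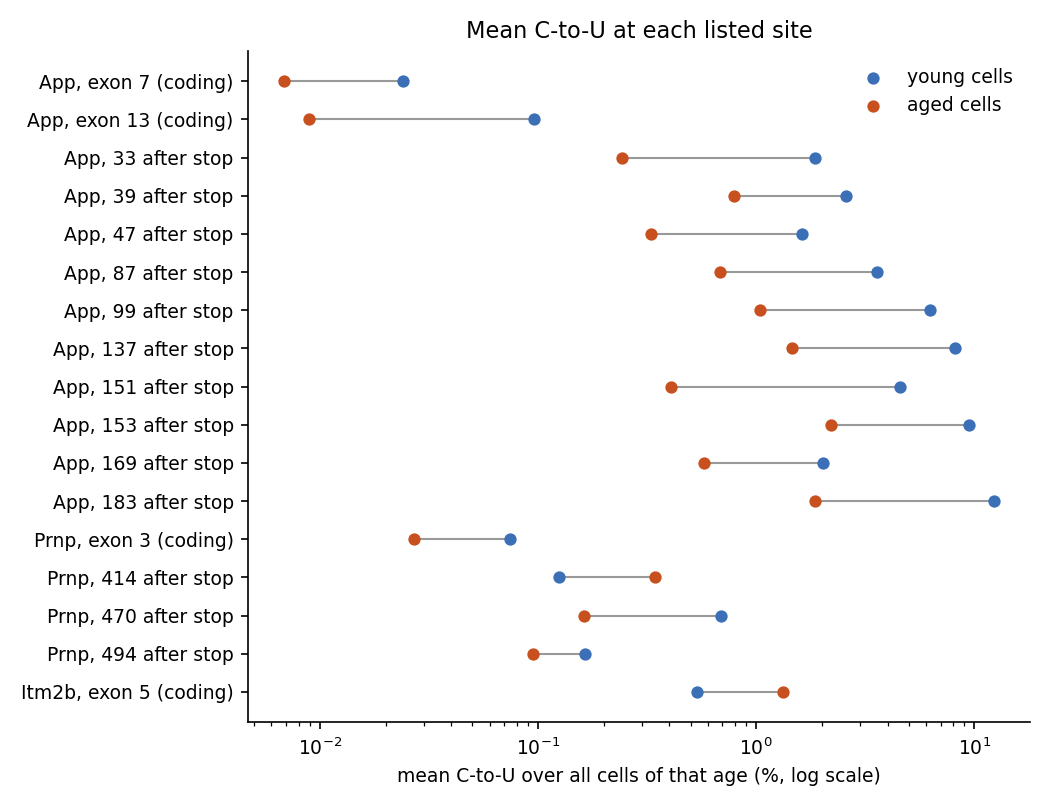
Mean C-to-U over all cells of an age at the 17 listed sites, in percent on a log axis, for young (blue) and aged (orange) cells joined by a line. There is 1 pooled value per age and no error. Aged values lie left of young ones at 15 sites and right of them at the Prnp site 414 bases after the stop codon and at the Itm2b site.

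Across the 3 genes 15 of 17 sites were lower in aged cells by mean, 12 of 17 by share and 4 of 17 by within-cell C-to-U. Of all listed sites 24.6% were lower by share, and of the 2036 with a methylated aged cell 68.1% were lower by within-cell C-to-U. The App cluster supplied 10 of the 17 sites, so these counts mostly repeat its direction. Outside it, 5 of 7 sites were lower by mean, 2 of 7 by share and 4 of 7 by within-cell C-to-U.

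**Figure D4:**
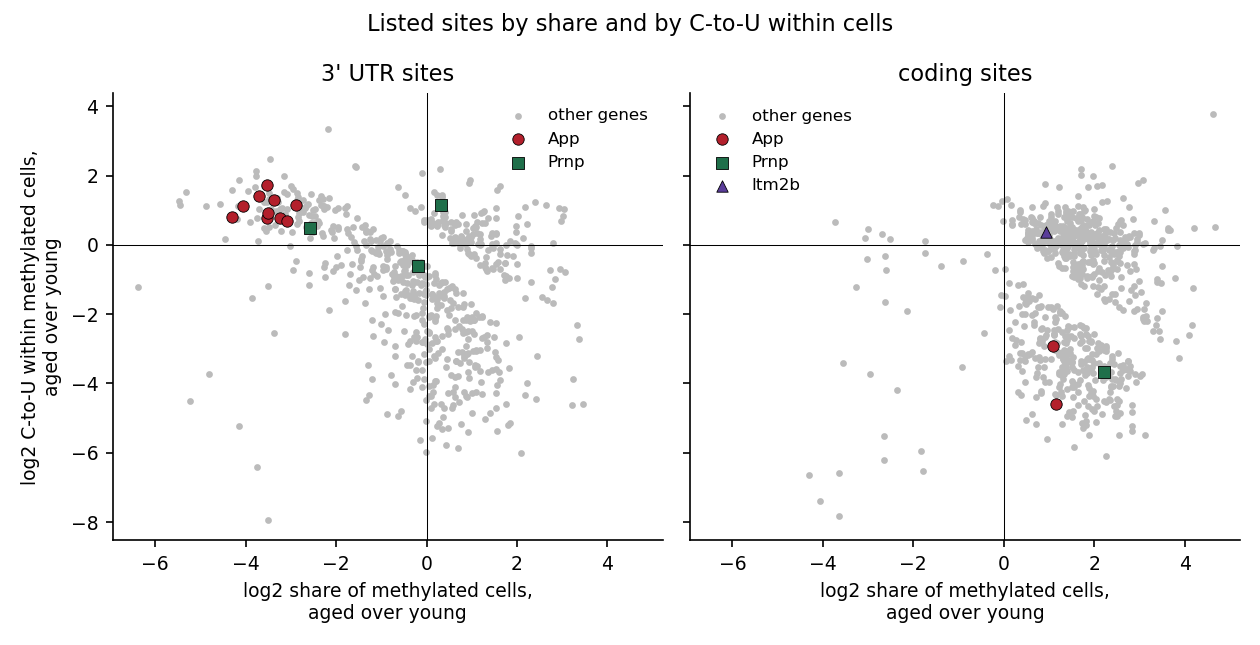
Log2 ratio, aged over young, of the share of methylated cells (horizontal axis) against that of the C-to-U within them (vertical axis), for listed 3' UTR sites (left) and coding sites (right) with a methylated aged cell. Grey points are sites of other genes, and the empty diagonal band holds the sites with small differences in mean that the table leaves out. The 10 App 3' UTR sites and 1 Prnp site sit at the upper left, and both App coding sites and the Prnp coding site at the lower right.

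By gene medians of these 2 log2 ratios over the 2 ages, the genes closest to each member were sought among the 304 other genes with at least 2 listed sites. Closest to App (-3.45 for share, 0.86 for within-cell C-to-U) were the calcium pump gene Atp2b2 (-3.14 and 0.90), Ppp3ca (-3.90 and 1.13) and the 14-3-3 gene Ywhaz (-2.86 and 1.03). Closest to Prnp (0.06 and -0.06) were the actinin gene Actn4 (0.28 and 0.04), the postsynaptic scaffold gene Dlgap1 (-0.11 and 0.10) and the neurotrophin receptor gene Ntrk3 (-0.05 and -0.27). The Prnp median stands for no single site of that gene, since its 4 sites differed. Closest to the single Itm2b site (0.93 and 0.38) were the active zone gene Rims1 (0.91 and 0.36), the translation factor gene Eif3a (0.97 and 0.28) and the postsynaptic scaffold gene Shank1 (0.95 and 0.23).

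A final comparison looked at other genes of amyloid biology, in 7 lists. Of their 59 genes beside the 3 above, 10 had a listed site. Of the 20 sites of those genes, 7 were higher and 13 lower by mean in aged cells, and 14 were higher and 6 lower by share. Among all listed sites 58.5% were lower by mean and 24.6% by share, so these counts lie near the background. The median log2 ratio of the mean was -1.15, against -0.87 over all sites. A gene without a listed site may still be methylated at either age, since the table lists differing sites.

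In the App family Aplp2, a close relative of App, had 1 site and Aplp1 none. The Aplp2 site, in the 3' UTR, went from 0.208% to 0.0148% by mean, while methylated cells went from 0.839% (0.526 to 1.27) to 2.48% (1.54 to 3.77). C-to-U in those cells went from 24.8% to 0.596%, and whether an aged value this low marks editing was not tested. Its 3' UTR site thus had the combination of the App coding sites and not that of the App 3' UTR cluster. Of the 687 listed 3' UTR sites with a methylated aged cell, 34.5% had the combination of Aplp2 and 21.3% that of the cluster. The contrast with App thus shows nothing particular to Aplp2. None of the 12 genes of the secretase list, which holds the enzymes that cut App, had a listed site.

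Among Itm2b relatives and their proteases, Itm2c was the 1 of 5 other genes with a site. Its 3' UTR site went from 0.250% to 0.0454% by mean, with shares of 1.98% (1.48 to 2.59) and 2.01% (1.17 to 3.20). In the prion list 2 of 4 other genes had sites. Sprn, which encodes the prion-like protein Shadoo, had 55 methylated young cells and 1 aged cell at its 3' UTR site, or 2.10% (1.58 to 2.72) and 0.118% (0.00299 to 0.657). Ncam1, an adhesion molecule that binds the prion protein, had 4 sites, and both the mean and the share were higher in aged cells at all of them. Over all listed sites only 24.6% were lower by share, so a higher share was common, while 58.5% were lower by mean. Its largest, in coding sequence, went from 1.09% to 4.37% by mean, and methylated cells from 1.94% (1.45 to 2.55) to 6.74% (5.14 to 8.64).

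Of the 18 genes for App adaptors and trafficking, 4 had sites, with 2 of 11 sites higher by mean. Clstn1, a kinesin-linked cargo adaptor of App transport, had 6 sites, all lower by mean, and at its largest 137 young cells, or 5.22% (4.40 to 6.14), and 1 aged cell, or 0.118% (0.00299 to 0.657), were methylated. Appbp2, which binds the App tail, went from 1.45% to 0.200% by mean at a C that did not follow an A. The adaptor gene Apba2 went from 0.305% to 0.124%. Dab1, an adaptor of reelin signalling that also binds App, had 2 of 3 sites higher, and its largest went from 0.799% to 1.42%.

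Of the 8 genes for amyloid beta clearance and lipid carriers, 1 had a site, the apolipoprotein E receptor gene Lrp8, which went from 0.167% to 0.332% by mean. Of the 10 genes for other aggregating or amyloid proteins, 1 had a site. This was the tau gene Mapt, which went from 0.410% to 0.206% at a 3' UTR site, with a higher share in aged cells.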

How the data were processed

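The values came from 1 deposited table that compares young and aged cells, in which the authors called C-to-U sites with the Bullseye pipeline, per the series' design text. The submitters' processing notes name STAR 2.7.5 and mm10. The sources used here name no read filter, depth normalisation or test. Per the file headers, the authors give the percent of cells methylated, the count of methylated cells and an average C-to-U fraction, printed here as percent. The headers do not say over which cells, and that average was taken here as the mean over all cells. Divided by the share, that mean gives the C-to-U within methylated cells. Per the file headers, the authors also give a log2 fold of young over aged mean C-to-U, whose sign was turned here. The p-values and adjusted p-values are the authors' own, as deposited. The other 3 value columns were not used.

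Positions, deposited as counted from 0 and printed as counted from 1, were placed with Python 3.11.15 on GENCODE M21 transcripts of the named gene (781 genes by name, 6 by synonym, 2 not placed), on the highest-ranked transcript with an exon there. Read in this way 1982 of 2049 sites were C on the strand of the gene, and 209 when counted from 1. A script computed exact intervals with scipy 1.17.1, ratios and counts, and was tested on simulated data. No test was added, since each age has 1 pooled value. All 17 sites of the 3 genes are named, each listed pathway gene is named by its site of largest difference, and the 3 nearest genes by Euclidean distance of 2 medians. The members and lists were chosen with earlier results of these data known. Of the lists, 1 gene is not reported here.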

Additional observations from a re-analysis of the deposited data

How the results depend on the processing

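Of 43 alternatives over 8 summary results (counts of lower sites and medians per gene, sites in 3' UTRs, sites with C after A), 33 stayed within 1.5-fold with the same direction, 8 moved further and 2 reversed. The measure mattered most. By C-to-U within methylated cells 2 App sites were lower instead of 12, and the median App log2 ratio was 0.86 against -2.44 by mean and -3.45 by share, a reversal. The Prnp median of -1.13 became 0.065 by share, also a reversal, and -0.059 by within-cell C-to-U, and the Itm2b value of 1.31 became 0.38 by within-cell C-to-U. Of the 3 lower Prnp sites, 1 was left among sites in DRAC and 1 when the authors' deposited adjusted p-value had to be under 0.01, since fewer sites remained. Relative to the median share of the table, a setting chosen after seeing the data, 1 Itm2b site was lower instead of 0. With positions counted from 1, 0 of 17 sites had a C after A instead of 15. Itm2b, with 42 methylated cells at its only site, gave no value with at least 50 cells or without its largest site. No paired analysis was possible because each age has 1 pooled value. Read depth is unknown, and the number of methylated aged cells limits precision: within-cell C-to-U rests on as few as 3 cells in App and on 1 in Sprn and Clstn1, and 3 cells, the floor for a count of 0, are a share of 0.355% of aged cells.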

Other observations

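Summed over the 10 sites of the App 3' UTR cluster, mean C-to-U went from 52.4% (young) to 9.56% (aged), and the sum counts edited positions that can lie on 1 transcript. Of the 3 App 3' UTR sites with the highest young share, those at 183 and 153 bases after the stop codon lay outside DRAC, with ATACA and ACACA around the edited C, while the site in the DRACH sequence GGACA ranked 107 among the 698 listed 3' UTR sites by young share. By aged share the 10 cluster sites ranked from 119 to 668.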
